A study of Mus musculus with 3 samples.

Results

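The subunits of respiratory chain complexes III and IV and of the ATP synthase, complex V, are split between the nuclear genome and the small circular genome inside mitochondria, and the RNA of both sets was compared in donor T cells of mice given cyclosporine (CSA). Members were chosen by name from the count table: Uqcr genes for complex III, Cox4 to Cox8 genes for complex IV, Atp5 genes for complex V, and all genes with the mt- prefix, without names holding -ps. This gave 52 of 18029 genes. Of these, 8 belonged to nuclear complex III, 15 to nuclear complex IV and 16 to nuclear complex V, which made 39 nuclear members, and 13 were protein-coding genes of the mitochondrial genome. Names alone picked the members, but the families were proposed with earlier results of these data known.

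Irradiated B6D2F1 mice received bone marrow and T cells from B6 donors, a parent-into-F1 transplant in which donor T cells react to host antigens and cause graft-versus-host disease (GVHD), together with TEa cells, which carry a transgenic T cell receptor and were left out here. All 3 groups had this transplant and differed in what was injected daily from day 0 to day 6: saline alone, or CSA, given as a dose of 5 or of 50 mg/kg. CSA inhibits calcineurin, the phosphatase that activates NFAT after T cell receptor signalling. Spleens of 6 mice per group were taken on day 7 as 3 hashtagged pools of 2 mice each, and sorted donor CD4+ and CD8+ T cells were sequenced with a 10x 5′ single-cell kit. Each dose was 1 droplet capture that held both lineages, so dose and capture cannot be told apart, and a p-value here measures only the spread between the 3 pools of a dose. Because 2 mice were pooled, the spread between single animals was not measured.

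Complex III passes electrons from ubiquinol to cytochrome c, complex IV passes them on to oxygen, and complex V uses the proton gradient to make ATP. The mitochondrial genome encodes a single subunit of complex III (mt-Cytb), the core of complex IV (mt-Co1, mt-Co2, mt-Co3), membrane subunits of complex V (mt-Atp6, mt-Atp8) and subunits of complex I (the mt-Nd genes). These genes are transcribed as long polycistronic RNAs that are cut at the tRNAs between them, while nuclear subunits are transcribed gene by gene and imported as proteins. Resting T cells rely mainly on oxidative phosphorylation, and activated effector cells add a high rate of glycolysis.

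Some mitochondrial genes share bases, and a read that lies within bases shared on the same strand cannot be given to a single gene. The end of mt-Atp8 is the beginning of mt-Atp6 on GRCm38, chrM:7927-7969, plus strand, with the start codon of mt-Atp6 and the stop codon of mt-Atp8 in capitals. The last 30 bases of mt-Nd4l, chrM:10144-10173, plus strand, end in 7 bases, in capitals, that also open mt-Nd4. The last 30 bases of mt-Nd5, chrM:13536-13565, plus strand, and of mt-Nd6, chrM:13552-13581, minus strand, overlap by 14 bases on opposite strands, in capitals. The sequences, read from the reference genome, were as follows.
mt-Atp8 and mt-Atp6: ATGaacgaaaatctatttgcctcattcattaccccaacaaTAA
mt-Nd4l: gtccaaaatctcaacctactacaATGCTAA
mt-Nd5: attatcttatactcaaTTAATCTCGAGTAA
mt-Nd6: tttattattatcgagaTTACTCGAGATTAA
mt-Nd6 was the only member on the minus strand of the mitochondrial genome. How strand was used in counting was not given in the sources used here, so UMIs of mt-Nd6 and of RNA antisense to it cannot be told apart.

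Any part of promoter motifs in the changes with CSA was not tested. Promoters of 4 nuclear members are shown, from 250 bases before to 50 bases after the start in RefSeq on GRCm38.p6. They are, for complex III and for complex V, the members with the largest and the smallest change at 50 mg/kg in CD8+ cells among called members with an entry. Matches to the searched letters are in capitals: the NRF1 core GCGCATGC, the ETS core CCGGAAGT and the YY1 core ATGGCGGC, each on both strands. The promoters were those of Uqcr11 (chr10:80406772-80407071, minus strand), Uqcrc1 (chr9:108936398-108936697, plus strand), Atp5l (chr9:44920693-44920992, minus strand) and Atp5b (chr10:128083057-128083356, plus strand).
Uqcr11: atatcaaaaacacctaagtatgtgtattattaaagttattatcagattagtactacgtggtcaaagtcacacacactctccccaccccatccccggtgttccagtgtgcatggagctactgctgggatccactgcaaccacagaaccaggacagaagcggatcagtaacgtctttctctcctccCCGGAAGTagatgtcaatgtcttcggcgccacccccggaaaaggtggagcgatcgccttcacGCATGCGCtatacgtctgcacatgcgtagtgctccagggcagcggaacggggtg
Uqcrc1: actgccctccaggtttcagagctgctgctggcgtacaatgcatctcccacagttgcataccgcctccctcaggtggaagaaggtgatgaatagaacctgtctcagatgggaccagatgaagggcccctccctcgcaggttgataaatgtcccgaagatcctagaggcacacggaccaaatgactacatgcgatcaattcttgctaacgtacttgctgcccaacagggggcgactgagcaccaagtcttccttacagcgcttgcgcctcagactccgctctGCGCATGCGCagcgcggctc
Atp5l: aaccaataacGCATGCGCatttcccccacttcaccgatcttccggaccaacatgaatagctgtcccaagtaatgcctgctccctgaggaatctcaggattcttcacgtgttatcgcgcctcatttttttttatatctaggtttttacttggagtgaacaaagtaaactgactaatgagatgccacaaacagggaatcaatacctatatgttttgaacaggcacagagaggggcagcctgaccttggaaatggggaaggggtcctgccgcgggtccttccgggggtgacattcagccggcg
Atp5b: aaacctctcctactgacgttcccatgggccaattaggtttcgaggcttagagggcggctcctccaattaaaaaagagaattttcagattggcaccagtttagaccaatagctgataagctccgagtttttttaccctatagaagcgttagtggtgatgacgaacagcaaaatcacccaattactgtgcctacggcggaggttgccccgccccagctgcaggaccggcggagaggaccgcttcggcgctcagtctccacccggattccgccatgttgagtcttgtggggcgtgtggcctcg
Of the 39 nuclear members, 31 had a promoter entry. A member was counted if any of its promoter entries held the motif, while the share over all promoters was per sequence. The shares are thus not of like units, and no test was run on them. The NRF1 core was in 6 of the members with an entry (19.4%) and in 2.73% of 32544 promoters of the same length. The ETS core was in 4 (12.9%) and in 3.92% of all, and the YY1 core was in 0 and in 2.26% of all. Those with the NRF1 core were Atp5g2, Atp5k, Atp5l, Cox6a1, Uqcr11 and Uqcrc1, those with the ETS core were Atp5h, Cox8a, Uqcr11 and Uqcrh, and 22 held none of the 3 motifs. The NRF1 core was found both in members with a large change (Atp5l, Uqcr11) and in one with a small change (Uqcrc1), where matches on both strands overlapped.

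The files held 10371 CD4+ cells, of which 10091 without the TEa mark were used, and 10833 CD8+ cells. Pools held 3994968 to 7592334 UMIs in CD4+ and 4392100 to 11454636 in CD8+ cells. Median UMIs per cell at saline, 5 and 50 mg/kg were 3097, 4396 and 5979.5 in CD4+ and 4108, 6121.5 and 7183 in CD8+ cells. Of 20986 distinct barcodes, 218 occurred in more than 1 capture. No CD8+ cell exceeded 5% mitochondrial UMIs, while 428 CD4+ cells did, which was 0.591%, 10.9% and 2.58% of CD4+ cells at saline, 5 and 50 mg/kg. The clusters that the study calls cycling held 21.7% ± 2.2, 23.1% ± 0.40 and 33.1% ± 2.0 (SD, n = 3 pools) of CD4+ cells and 53.3% ± 0.99, 49.3% ± 4.0 and 45.1% ± 6.9 of CD8+ cells. The summed level of 5 cycling markers (Mki67, Top2a, Pclaf, Cenpa, Birc5) went the other way in CD4+ cells, at 1860.1 to 2035, 1248 to 1458 and 1365 to 1484 CPM (UMIs per 1000000 UMIs of the library), and was at 2968 to 3141, 1919.8 to 2077 and 1317 to 1629 in CD8+ cells. All 8 genes of a T cell marker list were detected in every group. Cd4 was at 0 in every CD8+ pool and Cd8a in every CD4+ pool. Whether cells were assigned to a lineage by these same genes was not tested, so the zeros are no independent check of the lineages. Cd8b1 was not at 0 in CD4+ cells, where Cd8a and Cd8b1 summed to 141 to 153, 86.3 to 95.7 and 20.8 to 25.8 CPM at saline, 5 and 50 mg/kg. Summed B cell markers were at 174 to 189 CPM in saline and 257 to 295 at 50 mg/kg in CD4+ cells and at 160.1 to 170.4 and 545 to 672 in CD8+ cells, with 2 and 1 of the 6 markers at 0 at 50 mg/kg. Summed erythroid markers (5 of 6 in the table, none at 0) were at 3.21 to 14.5 CPM in saline and 27.7 to 36.6 at 50 mg/kg in CD4+ and at 3.89 to 17.6 and 23.7 to 48.1 in CD8+ cells. Their part in the results was not tested.

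With CSA, RNA of the nuclear members of all 3 complexes rose in both lineages and at both doses, both with TMM scaling and, for most members, by library size. Members were tested with edgeR's quasi-likelihood test on UMIs summed per pool, with TMM scaling, which sets the typical gene to no change, and an adjusted p (Benjamini-Hochberg over all genes) under 0.05 as the call. 35 nuclear members passed the filter on low counts in CD4+ and 37 in CD8+ cells. In CD4+ cells 34 were higher and 0 lower at 5 mg/kg, where 26.1% of all genes tested were called higher and 25.6% lower, and 34 were higher and 0 lower at 50 mg/kg, where 34.7% and 35.8% were. In CD8+ cells 36 were higher and 0 lower at 5 mg/kg, beside 29.9% and 30.3% of all genes, and 35 and 0 at 50 mg/kg, beside 37.1% and 36.9%. At an unadjusted p under 0.05 in edgeR, and at an adjusted p under 0.05 in DESeq2, 0 nuclear members were lower in each of these 4 comparisons. The median log2 change of the nuclear members was 0.80 and 0.96 in CD4+ and 1.02 and 1.09 in CD8+ cells, while that of all genes tested lay between -0.01 and 0.00. In such sums, more RNA per cell and more cells of a type that holds more of it cannot be told apart.

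The 13 mitochondrial genes had lower median changes than the nuclear members, and the direction of many of them depended on the scaling. With TMM 12 were higher and 0 lower at 5 mg/kg (0 lower at an unadjusted p under 0.05 and 0 in DESeq2) and 8 and 1 at 50 mg/kg in CD4+ cells, with medians of 0.37 and 0.24. In CD8+ cells 9 were higher and 1 lower, then 7 and 4, with medians of 0.17 and 0.09. Scaling by library size turned the sign of the log2 change of 4 and 7 of the 13 genes in CD4+ and 9 and 6 in CD8+ cells at 5 and 50 mg/kg. With that scaling the median of all genes moved to -0.37 and -0.45 in CD4+ and -0.43 and -0.53 in CD8+ cells. On that scale 3 mitochondrial genes were higher and 2 lower, then 1 and 8, in CD4+ cells, and 1 and 12, then 0 and 11, in CD8+ cells. Of all genes tested, 8.77% and 54.1% were called higher and lower on that scale at 5 mg/kg and 15.1% and 59% at 50 mg/kg in CD4+ cells, and 10.9% and 57.8%, then 15.6% and 62.7%, in CD8+ cells.

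The nuclear counts by library size were 30 higher and 2 lower, then 32 and 1, in CD4+ cells and 31 and 3, then 30 and 3, in CD8+ cells. All of those higher by library size were also higher with TMM. Members higher with TMM only were Atp5a1, Atp5b, Uqcrc1 and Uqcrc2 in CD4+ cells at 5 mg/kg and Atp5a1 and Atp5b at 50 mg/kg. In CD8+ cells they were Atp5a1, Atp5b, Cox6b2, Uqcrc1 and Uqcrc2 at 5 mg/kg and Atp5a1, Atp5b, Cox7a1, Uqcrc1 and Uqcrc2 at 50 mg/kg. Some of these were called lower by library size. In CD4+ cells they were Atp5a1 and Atp5b at 5 mg/kg and Atp5b at 50 mg/kg. In CD8+ cells they were Atp5a1, Atp5b and Uqcrc2 at 5 mg/kg and Atp5a1 and Atp5b at 50 mg/kg.

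**Figure D1:**
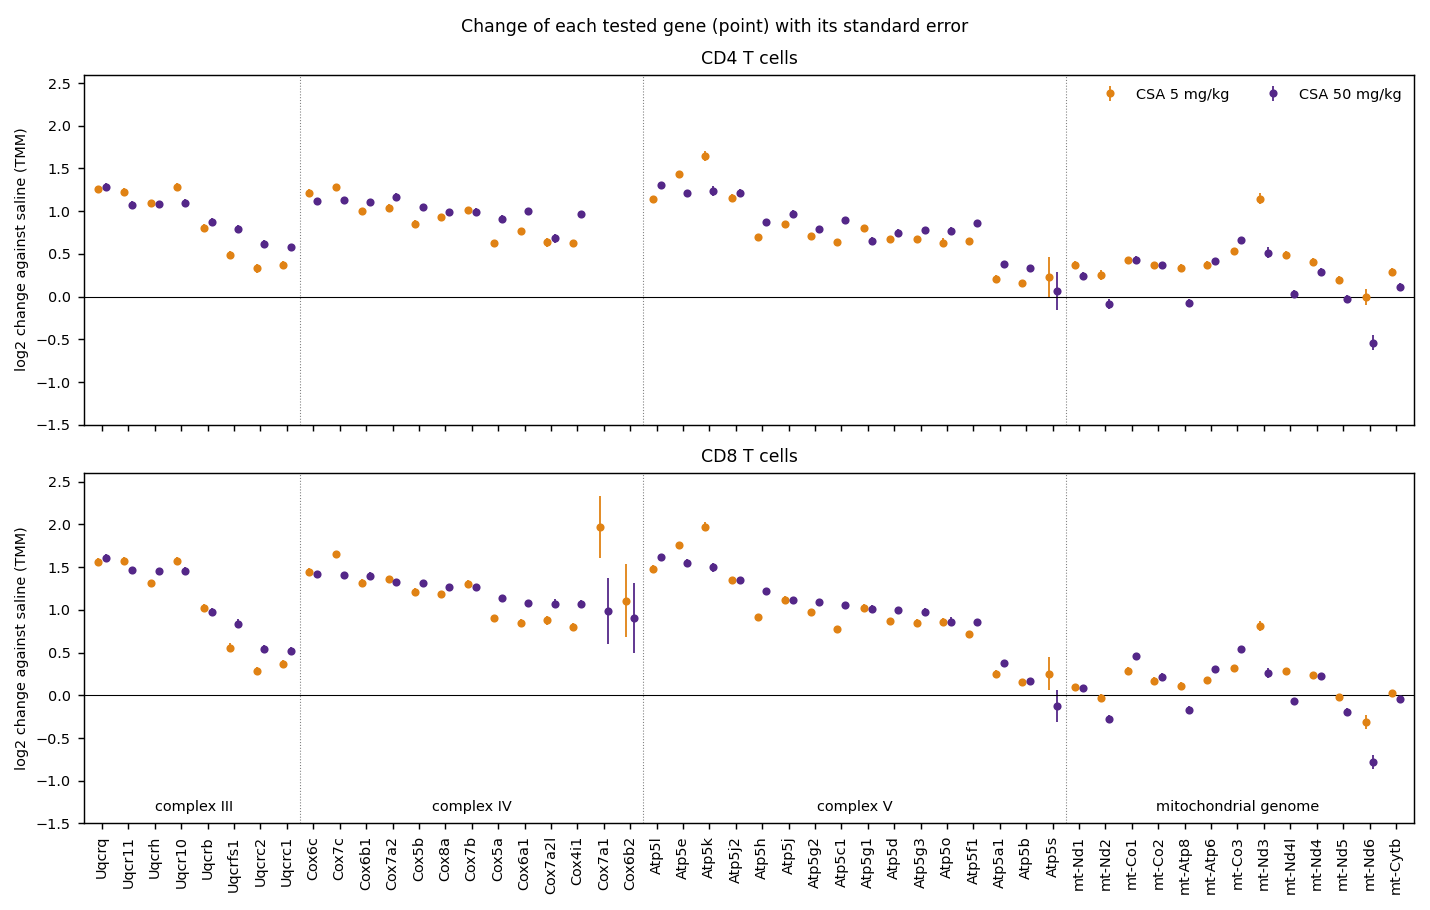
Log2 change of each member tested (TMM scaling, error bars are standard errors) at CSA 5 and 50 mg/kg against saline in CD4+ and CD8+ cells. The nuclear members have medians of 0.80 to 1.09 and the mt- genes of 0.09 to 0.37, and by library size 12 and 11 of the 13 mt- genes are called lower in CD8+ cells.

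In complex III all 8 members were higher in both lineages at both doses with TMM, and 6 and 8, then 6 and 6, by library size, with TMM median log2 changes of 0.95 and 0.97 in CD4+ and 1.17 and 1.22 in CD8+ cells. Small subunits led. Uqcrq, a small subunit that helps bind ubiquinone, was at 161, 164 and 166 in saline pools, 377, 399.8 and 397 with the lower dose and 405, 391 and 402 with the higher dose in TMM-scaled CPM in CD4+ cells. In CD8+ cells Uqcrq was at 139, 149.8 and 149 in saline pools, 419, 437 and 439.8 with the lower dose and 429, 436 and 474 with the higher dose. All treated pools were above all saline pools, and the doses overlapped with each other in both lineages. The log2 change of Uqcrq at 50 mg/kg was 1.29 ± 0.04 (SE, adjusted p = 1.23e-16 by edgeR) in CD4+ and 1.61 ± 0.05 (adjusted p = 2.90e-15) in CD8+ cells.

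Uqcr11, a small accessory subunit whose promoter is shown above, was at 125, 122 and 117, then 272, 298 and 279, then 254, 259 and 251 CPM at saline, 5 and 50 mg/kg in CD4+ cells. In CD8+ cells Uqcr11 was at 101, 108 and 112, then 324, 323 and 314, then 292, 288 and 305. In both lineages its 50 mg/kg pools lay between the saline and the 5 mg/kg pools. Uqcr10, another small subunit, was at 155, 165 and 166, then 364, 418 and 401, then 338, 344 and 355 CPM in CD4+ and 133, 136 and 147, then 407, 425 and 406, then 372, 368 and 400.2 in CD8+ cells, in the same order of groups. Uqcrh, the hinge protein, rose by 1.08 in CD4+ and 1.46 in CD8+ cells on the log2 scale at 50 mg/kg, and Uqcrb by 0.87 and 0.98.

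The core proteins of complex III changed least. Uqcrc1 was at 178, 176 and 179, then 219, 235 and 234, then 261, 264 and 268 CPM in CD4+ cells. In CD8+ cells Uqcrc1 was at 196, 195 and 192, then 245, 254 and 249.9, then 260.1, 279.8 and 296. All treated pools of Uqcrc1 were above all saline pools with TMM, with log2 changes at 50 mg/kg of 0.58 ± 0.04 and 0.52 ± 0.05, whereas by library size its change in CD8+ cells was -0.06 at 5 and -0.01 at 50 mg/kg and was not called. Uqcrc2, the other core protein, changed by 0.62 and 0.54 at 50 mg/kg with TMM, and Uqcrfs1, the Rieske iron-sulfur protein, by 0.79 and 0.84. By library size Uqcrc2 was called lower in CD8+ cells at 5 mg/kg.

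In complex IV 11 of the 15 members were tested in CD4+ and 13 in CD8+ cells. With TMM 11 and 11 were higher at 5 and 50 mg/kg in CD4+ cells, with medians of 0.93 and 1.00, and 13 and 12 in CD8+ cells, with medians of 1.21 and 1.27. By library size these counts were 11 and 11, then 12 and 11.

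Cox7c, a small membrane subunit, was at 223, 224 and 214, then 532, 526 and 546, then 494, 477 and 477 CPM in CD4+ cells. In CD8+ cells Cox7c was at 194, 189.8 and 199.8, then 637, 599.7 and 597, then 511, 498 and 535. No groups overlapped, and the lower dose was the higher in both lineages. Its log2 change was 1.28 ± 0.04 and 1.13 ± 0.04 in CD4+ and 1.65 ± 0.04 and 1.41 ± 0.04 in CD8+ cells at 5 and 50 mg/kg.

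Cox6c, another small subunit, was at 349, 343 and 342, then 772, 800 and 830.2, then 731, 756 and 761 CPM in CD4+ cells. In CD8+ cells Cox6c was at 311, 325 and 322, then 910.5, 854 and 851, then 830.4, 838 and 896. Its treated pools were above all saline pools, with log2 changes at 50 mg/kg of 1.12 ± 0.04 and 1.42 ± 0.04. Cox7a2, the widely expressed isoform of subunit VIIa, was at 218, 229 and 220.2, then 437, 458 and 475, then 521, 496 and 484 CPM in CD4+ cells, where the higher dose was the higher. In CD8+ cells Cox7a2 was at 205, 197 and 202, then 524, 522 and 501, then 515, 494 and 506, and the doses overlapped.

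Cox4i1, the main isoform of subunit IV, rose at 50 mg/kg by 0.96 in CD4+ and 1.07 in CD8+ cells, Cox5a by 0.91 and 1.14, and Cox5b by 1.05 and 1.31. Cox6b1 changed by 1.11 and 1.40, Cox6a1 by 1.00 and 1.08, Cox7b by 1.00 and 1.27 and Cox8a by 0.99 and 1.27. The smallest change of the tested members in CD4+ cells at 50 mg/kg was that of Cox7a2l, a relative of subunit VIIa that takes part in supercomplexes, at 0.68, and it was 1.07 in CD8+ cells. Isoforms known from other tissues were near the limit of detection. In CD4+ cells Cox4i2 (22 UMIs over the 9 pools), Cox6a2 (9), Cox6b2 (62) and Cox7a1 (39) failed the filter, and in CD8+ cells Cox4i2 (27) and Cox6a2 (50) did. Cox7a1, the heart and muscle isoform, was at 0.609, 0.703 and 1.04, then 1.97, 2.53 and 4.33, then 1.39, 1.59 and 1.73 CPM in CD8+ cells, with both doses above saline. Cox6b2, the testis isoform, was at 0.974, 1.20 and 0.832, then 3.69, 0.903 and 2.29, then 1.39, 1.59 and 2.55 CPM, with overlap between saline and 5 mg/kg, and was not called at 50 mg/kg (adjusted p = 0.0555 by edgeR).

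In complex V 15 of 16 members were higher at each dose in each lineage with TMM, with medians of 0.68 and 0.83 in CD4+ and 0.90 and 1.04 in CD8+ cells. By library size 13 were higher and 2 lower, then 13 and 1, in CD4+ cells, and 13 and 2, then 13 and 3, in CD8+ cells.

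Atp5e, the epsilon subunit of the central stalk, was at 451, 445 and 441, then 1188, 1206 and 1226, then 1046, 1025 and 1024 CPM in CD4+ cells. In CD8+ cells Atp5e was at 386, 375 and 384, then 1341, 1261 and 1272, then 1138, 1144 and 1083. This was 2.71-fold and 2.32-fold the saline level in CD4+ and 3.38-fold and 2.94-fold in CD8+ cells at 5 and 50 mg/kg, with no overlap between groups. Atp5l, subunit g of the membrane part, was at 347, 338 and 338, then 717, 757 and 777, then 838, 831 and 862 CPM in CD4+ cells. In CD8+ cells Atp5l was at 288, 283 and 297, then 832, 808 and 787, then 855, 880.1 and 929. It had the largest change of complex V at 50 mg/kg, 1.31 ± 0.04 and 1.62 ± 0.04.

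Atp5k, subunit e of the membrane part, was at 52.9, 63.9 and 59.3, then 181, 186 and 186, then 140.4, 138 and 141 CPM in CD4+ cells. In CD8+ cells Atp5k was at 53.5, 55.1 and 54.9, then 209, 219 and 214, then 162, 144 and 157. Its log2 change of 1.64 ± 0.06 and 1.97 ± 0.05 at 5 mg/kg, the largest of complex V at that dose, compared with 1.24 ± 0.06 and 1.4995 ± 0.05 at 50 mg/kg, and its 50 mg/kg pools lay between the other groups.

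Other parts of complex V rose at 50 mg/kg on both scales, with values given here for TMM. Of the membrane part, Atp5j2 (subunit f) rose by 1.21 in CD4+ and 1.35 in CD8+ cells, and Atp5g1, Atp5g2 and Atp5g3, which encode the same ring protein, by 0.66, 0.79 and 0.78 in CD4+ and 1.01, 1.09 and 0.98 in CD8+ cells. Of the peripheral stalk, Atp5f1 (subunit b), Atp5h (subunit d), Atp5j (coupling factor 6) and Atp5o (the oligomycin sensitivity protein) rose by 0.86, 0.88, 0.97 and 0.77 in CD4+ and 0.85, 1.22, 1.11 and 0.86 in CD8+ cells. Of the central stalk, Atp5c1 (gamma) and Atp5d (delta) rose by 0.90 and 0.75, then 1.06 and 1.00.

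The catalytic head of complex V had small changes. Atp5b, the catalytic beta subunit, was at 673, 674 and 701, then 726, 774 and 785, then 873, 843 and 872 CPM in CD4+ cells. In CD8+ cells Atp5b was at 796, 774 and 755, then 839.8, 894 and 852, then 895, 848 and 871. Its log2 change at 50 mg/kg was 0.34 ± 0.04 in CD4+ and 0.17 ± 0.04 in CD8+ cells with TMM and -0.10 and -0.36 by library size, where it was called lower in both lineages. Atp5a1, the alpha subunit of the head, changed by 0.38 and 0.38 with TMM at 50 mg/kg. Its values by library size were -0.06 and -0.16, called lower in CD8+ cells only. With TMM Atp5s, coupling factor B, was not called in any of the 4 comparisons, and by library size it was called lower in CD8+ cells at 50 mg/kg (-0.66), with 4.29 to 9.54 CPM over all pools of both lineages.

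The doses were compared with each other in the same fit, a comparison added after the data were seen. At 50 against 5 mg/kg 18 of 35 nuclear members were higher and 7 lower in CD4+ cells, beside 19.8% and 21.3% of all genes tested, and 16 of 37 higher and 6 lower in CD8+ cells, beside 20% and 21%. By library size the counts were 12 and 8, then 7 and 13, beside 13.5% and 27.1%, then 12.1% and 30.5%, of all genes. Members lower at 50 mg/kg in both lineages on both scales were Atp5k (-0.40 ± 0.05 and -0.47 ± 0.05 in CD4+ and CD8+ cells with TMM), Atp5e (-0.23 and -0.20), Cox7c (-0.15 and -0.25), Uqcr10 (-0.19 and -0.12) and Uqcr11 (-0.15 and -0.12). Members higher on both scales in both lineages included Cox4i1 (0.33 ± 0.03 and 0.27 ± 0.04), Cox5a (0.29 and 0.24), Uqcrfs1 (0.30 and 0.28) and Uqcrc2 (0.28 and 0.26). Of the mitochondrial genes 1 was higher and 8 lower in CD4+ and 3 and 6 in CD8+ cells, and by library size 0 and 9, then 1 and 9. Both comparisons with saline share the saline pools, so no overlap between them is drawn.

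The mitochondrial genes follow with their positions on GRCm38. mt-Cytb, cytochrome b of complex III (chrM:14145-15288), was at 1641, 1770.4 and 1620.4, then 2213, 1947 and 1982, then 1785, 1808 and 1867 TMM-scaled CPM in CD4+ cells. In CD8+ cells mt-Cytb was at 1635, 1750.3 and 1592, then 1735, 1606 and 1723, then 1655, 1599.7 and 1577. All groups overlapped in CD8+ cells, where it was not called, with log2 changes of 0.02 and -0.04 at 5 and 50 mg/kg, while by library size it was at -0.40 and -0.57.

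mt-Co1, the catalytic subunit of complex IV (chrM:5328-6872), was at 3308, 3303 and 3495, then 4659, 4493 and 4464, then 4219.6, 4595 and 4819 CPM in CD4+ cells. In CD8+ cells mt-Co1 was at 3517, 3439.7 and 3644, then 4205, 4280.2 and 4416, then 4472, 4894 and 5182. It was higher at both doses with TMM (0.43 and 0.43, then 0.28 and 0.46), whereas by library size it was at 0.07 and -0.01 in CD4+ and -0.14 and -0.07 in CD8+ cells. mt-Co2, which takes electrons from cytochrome c (chrM:7013-7696), was at 2233, 2389 and 2334, then 3064, 2947 and 2957, then 2825, 2990.4 and 3147 CPM in CD4+ cells. In CD8+ cells mt-Co2 was at 2476, 2574 and 2544, then 2777, 2799.6 and 2972, then 2821, 2911 and 3105. Its treated pools were above the saline pools with TMM, and by library size the change at 50 mg/kg was -0.07 and -0.31.

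mt-Co3, the remaining core subunit of complex IV (chrM:8607-9390), was at 2303, 2389.8 and 2413, then 3561, 3368 and 3357, then 3612, 3734 and 3944 CPM in CD4+ cells. In CD8+ cells mt-Co3 was at 2492, 2484 and 2517, then 3089, 3079 and 3206, then 3566, 3627 and 3756. It had the largest rise of the mitochondrial genes at 50 mg/kg with TMM, 0.67 ± 0.03 and 0.55 ± 0.03, and by library size it was at 0.23 in CD4+ cells, the only one called higher there, and at 0.02 in CD8+ cells.

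mt-Atp6, subunit a of complex V (chrM:7927-8607), was at 1964, 2102 and 2054, then 2762, 2621 and 2546, then 2595, 2698 and 2858 CPM in CD4+ cells. In CD8+ cells mt-Atp6 was at 2101, 2156 and 2188, then 2419, 2375 and 2501, then 2556, 2622 and 2782. With TMM it was higher at 50 mg/kg (0.41 and 0.30), and by library size its values were -0.03 and -0.23. mt-Atp8, encoded on the same RNA (chrM:7766-7969), was at 438, 463 and 463, then 609.6, 553 and 559, then 426, 422 and 452 CPM in CD4+ cells. In CD8+ cells mt-Atp8 was at 447, 458 and 467, then 502, 477 and 502, then 395, 393 and 432. From 5 to 50 mg/kg mt-Atp8 changed by -0.40 and -0.28 with TMM and -0.48 and -0.38 by library size, with no overlap of pools, and mt-Atp6 by 0.04 and 0.13 with TMM.

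Of the complex I genes, mt-Nd1 (chrM:2751-3707) was at 629, 688 and 668, then 925, 832 and 811, then 759, 775 and 811 CPM in CD4+ cells. In CD8+ cells mt-Nd1 was at 695, 733 and 712, then 760, 754 and 777, then 773, 729.6 and 772. Its change in CD8+ cells was 0.10 and 0.09 with TMM and -0.33 and -0.44 by library size. mt-Nd2 (chrM:3914-4951) was at 533, 624 and 568, then 779, 621 and 659, then 533, 541 and 555 CPM in CD4+ cells. In CD8+ cells mt-Nd2 was at 593, 667 and 623, then 639, 587 and 619, then 531, 520 and 507. Its 50 mg/kg pools of CD8+ cells were below all saline pools, with a log2 change of -0.27 ± 0.04 with TMM and -0.80 by library size.

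mt-Nd3 (chrM:9459-9806) was highest at the lower dose. It was at 60.01, 72.5 and 66.7, then 157, 139 and 149, then 96.3, 94.3 and 96.1 CPM in CD4+ cells. In CD8+ cells mt-Nd3 was at 73.3, 77.1 and 69.4, then 132, 120.2 and 134, then 91.4, 86.0 and 85.9. Its log2 change at 5 mg/kg was 1.149 ± 0.06 and 0.82 ± 0.06, called on both scales, and at 50 mg/kg it was 0.52 and 0.26 with TMM and 0.08 and -0.27 by library size.

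mt-Nd4l (chrM:9877-10173) was at 646, 727 and 650.3, then 1017, 918 and 909, then 669, 701 and 696 CPM in CD4+ cells. In CD8+ cells mt-Nd4l was at 655, 718 and 665, then 837, 809 and 834, then 656, 649.8 and 643. It was higher at 5 mg/kg with TMM in both lineages (0.49 and 0.28) and at 0.13 and -0.14 by library size, and with TMM it was not called at 50 mg/kg. mt-Nd4 (chrM:10167-11544), which follows it on the same RNA, was at 396, 441 and 399, then 590, 529 and 521, then 489.9, 504 and 516 CPM in CD4+ cells. In CD8+ cells mt-Nd4 was at 408, 459 and 435, then 529, 495 and 509.6, then 505, 503 and 510.1. Its treated pools were above saline at both doses with TMM (0.29 and 0.22 at 50 mg/kg), whereas by library size the change at 50 mg/kg was -0.15 and -0.31.

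mt-Nd5 (chrM:11742-13565) was at 433, 417 and 431, then 525, 480.1 and 464, then 403, 414 and 437 CPM in CD4+ cells. In CD8+ cells mt-Nd5 was at 479, 475 and 472, then 479, 456 and 468, then 390, 427 and 432, and it was lower at 50 mg/kg on both scales (-0.19 ± 0.04 with TMM). mt-Nd6 (chrM:13552-14070), the minus-strand gene, was at 35.8, 42.0 and 40.1, then 39.4, 42.9 and 36.3, then 24.4, 29.2 and 28.0 CPM in CD4+ cells. In CD8+ cells mt-Nd6 was at 40.6, 43.1 and 37.0, then 30.04, 33.6 and 33.1, then 23.3, 24.3 and 23.0. It had the lowest log2 change of the members at 50 mg/kg, -0.54 ± 0.09 and -0.78 ± 0.08 with TMM and -0.98 and -1.31 by library size, and its 50 mg/kg pools were below all saline pools.

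Shares of all mitochondrial UMIs do not depend on the scaling of the library. mt-Co3 made up 15.7% ± 0.20, 17.2% ± 0.14 and 19.5% ± 0.13 (SD, n = 3 pools) of them at saline, 5 and 50 mg/kg in CD4+ and 15.7% ± 0.24, 17.1% ± 0.097 and 19.1% ± 0.19 in CD8+ cells. mt-Nd6 made up 0.260% ± 0.014, 0.199% ± 0.019 and 0.141% ± 0.0095 in CD4+ and 0.253% ± 0.019, 0.177% ± 0.011 and 0.123% ± 0.0065 in CD8+ cells. For both genes the 3 groups did not overlap in either lineage.

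mt-Nd2 made up 3.81%, 3.44% and 2.81% in CD4+ and 3.95%, 3.37% and 2.73% in CD8+ cells, mt-Nd5 2.83%, 2.45% and 2.16%, then 3.00%, 2.57% and 2.18%, and mt-Cytb 11.1%, 10.3% and 9.43%, then 10.5%, 9.26% and 8.46%. The mean shares of these 3 genes were lowest at 50 mg/kg in both lineages. mt-Nd3 was at 0.440%, 0.744% and 0.495% in CD4+ and 0.462%, 0.707% and 0.461% in CD8+ cells. The largest share was that of mt-Co1, at 22.3%, 22.8% and 23.5% in CD4+ and 22.3%, 23.6% and 25.4% in CD8+ cells.

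Overlapping genes on the same RNA were also set against each other. UMIs of mt-Atp8 per UMI of mt-Atp6 were at 0.223 ± 0.0026, 0.217 ± 0.0053 and 0.160 ± 0.0040 at saline, 5 and 50 mg/kg in CD4+ and at 0.213 ± 0.00041, 0.203 ± 0.0039 and 0.153 ± 0.0030 in CD8+ cells. Those of mt-Nd4l per UMI of mt-Nd4 were at 1.64 ± 0.010, 1.73 ± 0.011 and 1.37 ± 0.020 in CD4+ and at 1.57 ± 0.037, 1.62 ± 0.032 and 1.28 ± 0.021 in CD8+ cells. The 50 mg/kg pools were below all others for both pairs and in both lineages. How UMIs in the shared bases were counted was not given in the sources used here, and its part in these ratios was not tested.

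**Figure D2:**
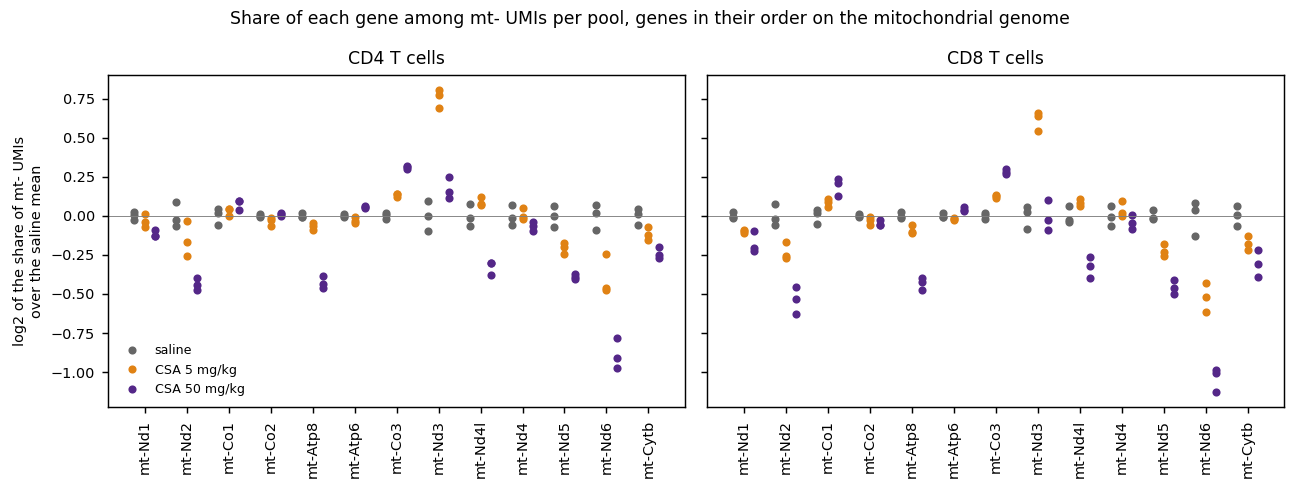
Share of each mt- gene in all mitochondrial UMIs of a pool, as log2 over the saline mean, in CD4+ and CD8+ cells, with a point per pool coloured by dose and genes in their order on the mitochondrial genome. From saline to 50 mg/kg in CD4+ cells, mt-Nd6 goes from 0.260% to 0.141% and mt-Co3 from 15.7% to 19.5%, and mt-Nd3 is highest at 5 mg/kg.

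The nuclear and mitochondrial sets were then set against each other as a ratio of UMIs, which is a description and carries no test. In CPM of the whole library, the nuclear members summed to 13596, 13751 and 13633, then 18633, 19165 and 19012, then 19135, 18987 and 19108 at saline, 5 and 50 mg/kg in CD4+ cells. In CD8+ cells they summed to 13554, 13564 and 13772, then 20789, 21001 and 20608, then 20371, 20177 and 20776. On this library size scale every treated pool was above every saline pool.

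The mitochondrial genes summed to 17501, 18571 and 18318, then 19779, 18322 and 18004, then 16386, 17159.9 and 17873 CPM in CD4+ cells, where each dose overlapped with saline. In CD8+ cells they summed to 19455, 20015 and 19892, then 16769, 16589 and 17454, then 15934, 16525 and 16952, with all treated pools below all saline pools. The ratio of mitochondrial to nuclear UMIs was 1.29, 1.35 and 1.34, then 1.06, 0.956 and 0.947, then 0.856, 0.904 and 0.935 in CD4+ cells. In CD8+ cells it was 1.44, 1.48 and 1.44, then 0.807, 0.790 and 0.847, then 0.782, 0.819 and 0.816. Treated pools were below all saline pools in both lineages, and the doses did not overlap with each other in CD4+ cells. The log2 change of the ratio was -0.43 and -0.56 in CD4+ and -0.83 and -0.85 in CD8+ cells, where the pooled SD between pools was 0.0700 and 0.0528, then 0.0394 and 0.0299.

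Within each complex the ratio was lower with CSA as well. mt-Cytb per UMI of the Uqcr genes was at 1.148 ± 0.049, 0.736 ± 0.073 and 0.639 ± 0.015 (SD, n = 3) in CD4+ and 1.23 ± 0.062, 0.582 ± 0.026 and 0.530 ± 0.024 in CD8+ cells. The mt-Co genes per UMI of the Cox genes were at 1.99 ± 0.054, 1.46 ± 0.075 and 1.38 ± 0.066 in CD4+ and 2.17 ± 0.0017, 1.18 ± 0.048 and 1.23 ± 0.042 in CD8+ cells. The mt-Atp genes per UMI of the Atp5 genes were at 0.426 ± 0.015, 0.325 ± 0.020 and 0.300 ± 0.014 in CD4+ and 0.462 ± 0.0091, 0.271 ± 0.011 and 0.270 ± 0.011 in CD8+ cells. At 50 mg/kg the log2 changes for complexes III, IV and V were -0.84, -0.53 and -0.51 in CD4+ and -1.22, -0.82 and -0.78 in CD8+ cells.

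**Figure D3:**
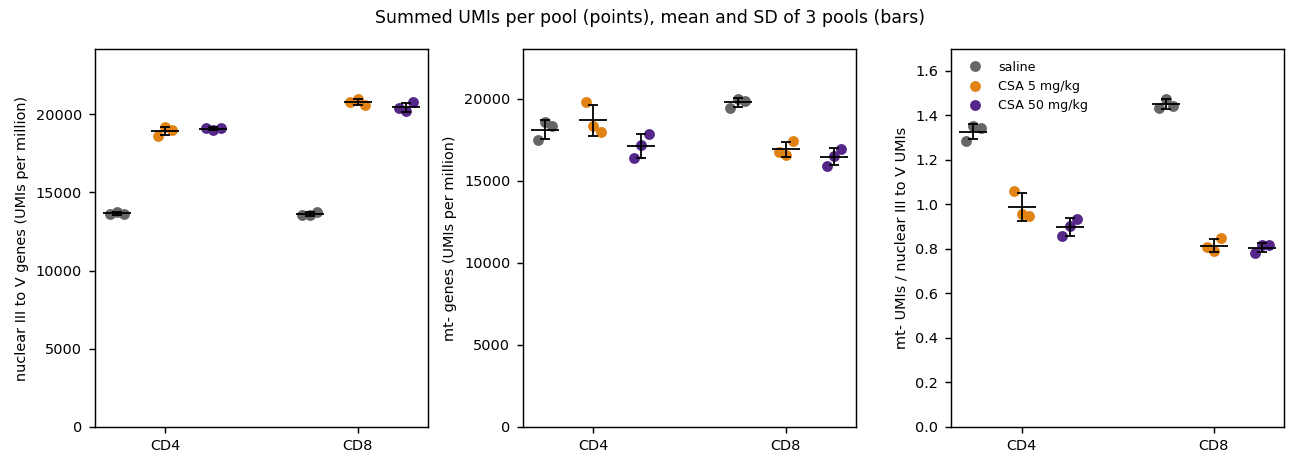
Summed CPM (whole library) of the nuclear members (left) and of the mt- genes (middle), and the ratio of the mt- to the nuclear UMIs (right), per pool (points) with mean and SD of 3 pools (bars), by dose in CD4+ and CD8+ cells. On this library size scale the nuclear sums are higher with CSA in every pool, and the mt- sum overlaps with saline in CD4+ cells and lies lower in CD8+ cells.

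The size of the fall depended on which cells and members were counted. Outside the cycling clusters the log2 change of the ratio was -0.35 and -0.37 in CD4+ and -0.58 and -0.56 in CD8+ cells at 5 and 50 mg/kg. In cells of 4000 to 8000 UMIs it was -0.55 and -0.32, then -0.74 and -0.69. Without cells above 5% mitochondrial UMIs, chosen after seeing the data, it was -0.65 and -0.59 in CD4+ cells. With only the 11 nuclear members whose median transcript had at least 1000 bases, also chosen after seeing the data, it was -0.08 and -0.28 in CD4+ and -0.36 and -0.41 in CD8+ cells.

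The ratio also differed between the study's clusters, given as a description since clustering used the same counts. In saline CD4+ cells it was highest in C4, follicular helper cells (2.25 ± 0.085), and C6, cycling Cd226hi effector cells (1.90 ± 0.19), and lowest in C3, cycling Cd226lo effector cells (0.782 ± 0.053), and C1, Cd226lo effector cells (0.809 ± 0.053). In saline CD8+ cells it was highest in C4, cycling Cd226hi effector cells (2.08 ± 0.034), and C5, Tcf7hi cells (1.82 ± 0.046), and lowest in C7, naive cells (0.797 ± 0.039), and C1, Cd226lo effector cells (0.860 ± 0.035). The Cd226hi effector cells C0 were at 1.41 ± 0.059 in CD4+ and 1.59 ± 0.0085 in CD8+ cells, above C1 of the same lineage in every saline pool.

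The fall with CSA was not found in every cluster. Among clusters with at least 10 cells in at least 2 pools of each group, the ratio was lower without overlap in 5 of 11 CD4+ clusters at 5 mg/kg and 5 of 11 at 50 mg/kg, higher without overlap in 2 and 3, and overlapping in 4 and 3. In CD8+ cells it was lower without overlap in 7 of 9 and 6 of 8 clusters and higher in 2 and 2. CD4+ C5, a cycling effector cluster, was at 1.19 ± 0.077, 0.760 ± 0.031 and 0.738 ± 0.0090 at saline, 5 and 50 mg/kg, and CD8+ C5, Tcf7hi cells, at 1.82 ± 0.046, 1.02 ± 0.016 and 0.962 ± 0.13.

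At the higher dose the Cd226lo effector cells and the naive CD8+ cells had a higher ratio than in saline. CD4+ C1 was at 0.809 ± 0.053, 0.757 ± 0.028 and 1.02 ± 0.030, CD8+ C1 at 0.860 ± 0.035, 0.799 ± 0.027 and 0.929 ± 0.015, and CD8+ C7, naive cells, at 0.797 ± 0.039, 0.922 ± 0.073 and 1.03 ± 0.025, with 50 mg/kg above saline without overlap in each. CD4+ C9, naive cells, was at 1.03 ± 0.16, 0.905 ± 0.021 and 0.976 ± 0.13, with 5 mg/kg below saline without overlap and 50 mg/kg overlapping with it.

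The largest ratios were those of CD4+ C4 and C6 and of CD8+ C4 with CSA, clusters that held fewer cells than in saline. These clusters had fewer median UMIs per cell than in saline at 5 mg/kg, and CD4+ C4 and C6 also at 50 mg/kg. CD4+ C4 was at 2.25 ± 0.085, 5.71 ± 0.21 and 2.87 ± 0.53, and CD4+ C6 at 1.90 ± 0.19, 4.99 ± 1.1 and 4.42 ± 0.12 (2 pools). CD8+ C4 was at 2.08 ± 0.034 in saline and 3.16 ± 0.45 at 5 mg/kg, with median UMIs per cell of 6334 and 4186. Cells above 5% mitochondrial UMIs were 123 of 189 in CD4+ C4 at 5 mg/kg (65.1%) and 13 of 733 in saline (1.77%). In CD4+ C6 they were 88 of 181 (48.6%) and 6 of 443 (1.35%). Median UMIs per cell from saline to 5 mg/kg went from 2475 to 1506 in CD4+ C4 and from 5675 to 2536 in CD4+ C6. At 50 mg/kg 21 of 45 cells of CD4+ C4 (46.7%) and 21 of 34 of CD4+ C6 (61.8%) were above 5% mitochondrial UMIs. Median UMIs per cell at that dose were 2053 in CD4+ C4 and 2548.5 in CD4+ C6. The part of these cells in the cluster ratios was not tested.

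**Figure D4:**
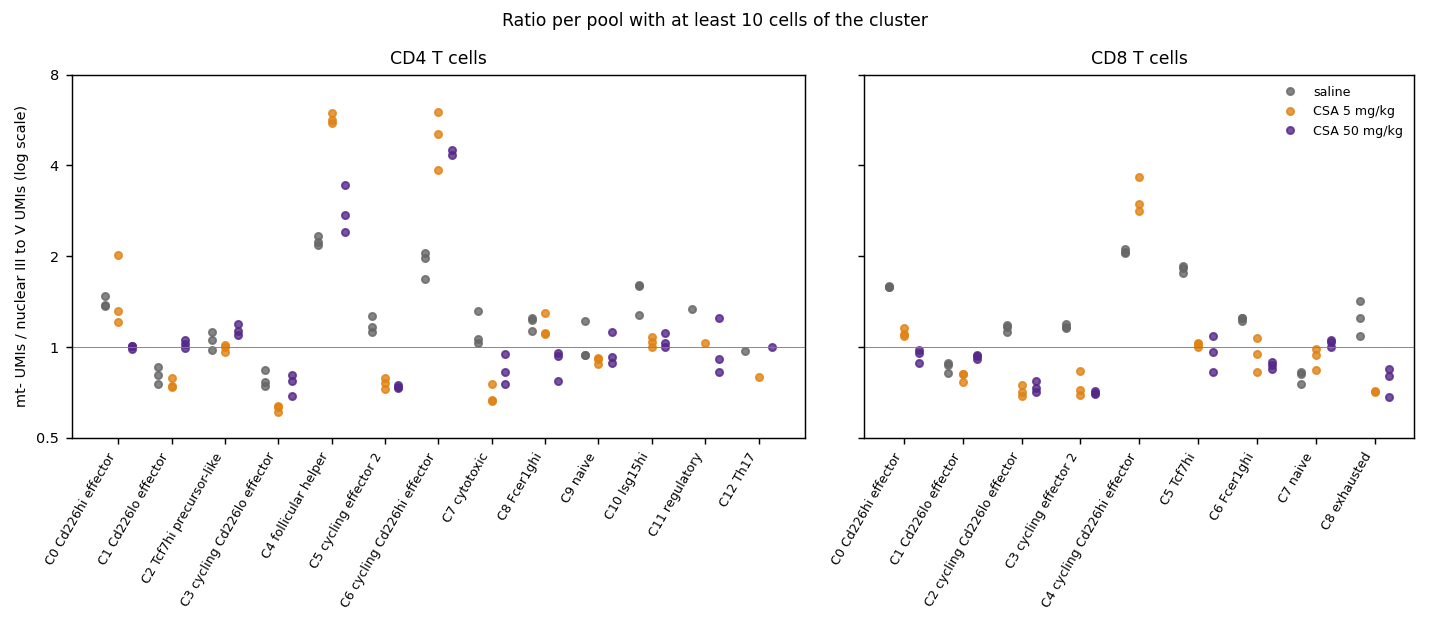
Mitochondrial UMIs per nuclear member UMI (log axis) in each cluster, with a point per pool with at least 10 cells of the cluster, coloured by dose, in CD4+ and CD8+ cells. Most CD8+ clusters lie lower with CSA, for example C5 (1.82 to 0.962), while CD4+ C4 and C6 are at 5.71 and 4.99 at 5 mg/kg.

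Calls within a cluster were used for 3 clusters of each lineage. In CD8+ C5, Tcf7hi cells, 32 and 32 of 34 nuclear members were higher at 5 and 50 mg/kg with TMM, beside 16.2% and 17.1% of genes tested there, with medians of 0.98 and 1.01. The mitochondrial genes of CD8+ C5 were 1 higher and 1 lower, then 1 and 3, beside 20.4% and 17.6% of genes lower there, and by library size 11 and 11 were lower, beside 42.4% and 34.7%. In CD8+ C1 15 and 25 nuclear members were higher with TMM, beside 3.51% and 13.4%, with medians of 0.25 and 0.27, and 5 and 7 mitochondrial genes were higher.

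In CD4+ C1 13 and 11 of 34 nuclear members were higher, beside 2.47% and 9.38%, with medians of 0.20 and 0.12, and 1 and 8 mitochondrial genes were higher. In CD4+ C2, Tcf7hi precursor-like cells, 13 and 14 nuclear members were higher, beside 3.04% and 11.6%, with medians of 0.22 and 0.19. By library size the nuclear members higher at 50 mg/kg were 3 in CD4+ C1, 4 in CD4+ C2 and 7 in CD8+ C1, beside 5.52%, 6.37% and 5.66% of genes tested there.

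Naive cells had the fewest nuclear calls of these 6 clusters. In CD4+ C9 5 and 4 of 34 nuclear members were higher, beside 7.76% and 11.5% of genes tested there. In CD8+ C7 0 and 0 of 34 nuclear members were higher in edgeR, beside 0.685% and 1.28%, and at an unadjusted p under 0.05 4 and 0 were. The nuclear medians of CD8+ C7 were 0.03 and 0.07, while 2 and 5 of 12 mitochondrial genes were higher with TMM and, at 50 mg/kg, 0 lower, beside 2.29% of genes. By library size 5 mitochondrial genes were higher and 0 lower in CD8+ C7 at 50 mg/kg, beside 1.55% and 2.17%. Saline pools held 25 to 50 cells of CD4+ C9 and 35 to 41 of CD8+ C7.

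In clusters described by medians alone, the nuclear members had medians at 50 mg/kg with TMM of 1.09 in CD4+ C0, 1.01 in CD4+ C5 and 0.89 in CD4+ C7, cytotoxic cells. In CD8+ cells the medians were 1.23 in C0, 1.00 in C3, a cycling effector cluster, and 1.04 in C8, exhausted cells. The lowest were 0.05 in CD4+ C6 and 0.31 in CD4+ C3.

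The signed log2 change with CSA was compared between the lineages as the interaction of lineage and dose, with the pool as a block, so that a lower change can be a smaller rise or a larger fall. At 5 mg/kg the change in CD8+ cells was higher than in CD4+ cells for 18 and lower for 0 of 37 nuclear members (lower for 0 at an unadjusted p under 0.05) and lower for 12 of 13 mitochondrial genes, beside 2.12% of all genes higher and 1.55% lower. At 50 mg/kg it was higher for 21 and lower for 1 of the nuclear members and lower for 8 mitochondrial genes, beside 9.31% and 10.4%. The nuclear member with the lower change was Atp5b, at -0.19 ± 0.04 (adjusted p = 0.00269 by edgeR). By library size the difference was called for 16 nuclear members higher and 12 mitochondrial genes lower at 5 mg/kg and for 19 and 12 at 50 mg/kg, beside 1.66% and 2.52%, then 6.94% and 15.6%, of all genes called higher and lower. On that scale 2 nuclear members, Atp5b and Uqcrc1, were lower at 50 mg/kg.

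The counts of this difference depended on the cells used. Outside the cycling clusters it was called for 3 nuclear and 1 mitochondrial genes at 5 mg/kg and for 9 and 2 at 50 mg/kg, beside 0.475% and 0.272%, then 2.95% and 3.16%, of all genes. Without the CD4+ cells above 5% mitochondrial UMIs it was called for 10 nuclear and 0 mitochondrial genes at 5 mg/kg in edgeR (6 at an unadjusted p under 0.05), beside 0.809% and 0.318%. At 50 mg/kg without these cells 21 nuclear members were called higher and 8 mitochondrial genes lower, beside 9.14% and 10.7%. Atp5b was called lower there as well (-0.20). Without saline pool 2 the nuclear count at 5 mg/kg was 11, and without saline pool 1 the mitochondrial count at 50 mg/kg was 4.

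Among the differences called, those of Cox7c (0.34 ± 0.06, adjusted p = 0.00083 by edgeR), Cox5b (0.33 ± 0.04, adjusted p = 6.01e-05) and Uqcr11 (0.32 ± 0.07, adjusted p = 0.00532) were largest at 5 mg/kg. At 50 mg/kg those of Uqcr11 (0.36 ± 0.06), Cox7a2l (0.36 ± 0.07) and Uqcrh (0.35 ± 0.05) were. For the core proteins Uqcrc1 and Uqcrc2 no difference was called with TMM, with -0.04 ± 0.06 and -0.07 ± 0.07 at 5 mg/kg and -0.08 ± 0.05 and -0.09 ± 0.06 at 50 mg/kg. By library size that of Uqcrc1 at 50 mg/kg was -0.15 and called lower (adjusted p = 0.0481 by edgeR). With TMM mt-Nd3 differed most of the mitochondrial genes, by -0.36 ± 0.07 and -0.28 ± 0.08, and mt-Co1 differed by -0.18 ± 0.04 at 5 mg/kg and was at 0.00 at 50 mg/kg.

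Other genes of the same machinery were counted by lists chosen for their role, with TMM scaling. Each count is to be read beside the genes called over the whole table, 26.1% and 34.7% higher and 25.6% and 35.8% lower at 5 and 50 mg/kg in CD4+ cells, and 29.9% and 37.1% higher and 30.3% and 36.9% lower in CD8+ cells. Cycs, cytochrome c, was at 133 ± 11.998, 256 ± 18.03 and 284 ± 12.8 CPM (SD, n = 3) at saline, 5 and 50 mg/kg in CD4+ and at 122 ± 2.3, 265 ± 11.6 and 263 ± 20.6 in CD8+ cells, a log2 change at 50 mg/kg of 1.10 and 1.11. Cyc1, cytochrome c1 of complex III, changed by 0.26 and 0.23 with TMM, called higher, and by -0.18 and -0.30 by library size, called lower.

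Of 6 complex III assembly factors 2 and 3 were higher in CD4+ cells at 5 and 50 mg/kg and 3 and 4 in CD8+ cells, where 1 was lower at each dose. Uqcc2 went from 95.4 ± 8.9 to 214 ± 18.2 CPM in CD4+ and from 84.9 ± 0.77 to 205 ± 10.0 in CD8+ cells at 50 mg/kg, and Uqcc3 rose by 0.89 and 1.08 on the log2 scale. Of 20 complex IV assembly factors 12 and 12 were higher and 1 and 2 lower in CD4+ cells, and 14 and 15 higher and 1 and 2 lower in CD8+ cells. Cox20, a chaperone of the mt-Co2 protein, rose by 1.40 and 1.53 at 50 mg/kg, Pet100 by 1.34 in CD4+ cells and the copper carrier Cox17 by 1.51 in CD8+ cells.

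Atpif1, the inhibitor of ATP hydrolysis by complex V, was at 111 ± 1.8, 202 ± 6.6 and 259 ± 7.9 CPM in CD4+ and 119.6 ± 3.9, 284 ± 5.5 and 313 ± 16.4 in CD8+ cells. Of the 4 tested genes of complex V assembly and inhibition 2 and 2 were higher in CD4+ and 1 and 3 in CD8+ cells, where 1 was lower at each dose, and the assembly factor Atpaf2 changed by 0.35 and 0.30 at 50 mg/kg. In complex II, which has no mitochondrially encoded subunit, 3 of 4 genes were higher and 1 lower in each comparison, with Sdhb at 0.95 and 0.86 and Sdhd at 0.61 and 0.83 at 50 mg/kg.

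Few genes of the machinery of mitochondrial DNA were called with TMM, but most of them were at low levels. In saline CD4+ cells Mterf1b was at 2.48 and Twnk at 3.99 CPM, while Tfam was at 51.7. The SEs of their log2 changes at 50 mg/kg were 0.39, 0.24 and 0.07. A missing call for a gene at a low level thus does not show that it did not change. Of 16 genes of mitochondrial DNA replication and transcription 1 and 2 were higher and 0 and 2 lower in CD4+ cells, and 2 and 4 higher and 1 and 1 lower in CD8+ cells. By library size 1 and 5, then 1 and 7, were higher and lower in CD4+ and 1 and 6, then 1 and 9, in CD8+ cells. With TMM, at 50 mg/kg Ssbp1, the single-strand DNA binding protein, rose by 0.70 and 0.72, while Top1mt, the mitochondrial topoisomerase, was at -0.56 in CD4+ cells and Polg2, the accessory subunit of the DNA polymerase, at -0.43 in CD8+ cells. Of 17 genes of mitochondrial RNA processing and stability 4 and 5 were higher and 3 and 5 lower in CD4+ cells, and 4 and 4 higher and 6 and 7 lower in CD8+ cells.

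LRPPRC and SLIRP form a complex that keeps mitochondrial mRNAs stable, and their genes went in opposite directions on both scales. Slirp, with a median transcript of 1751.5 bases, went from 26.7 ± 0.38 to 58.1 ± 2.7 CPM in CD4+ and from 24.3 ± 1.6 to 57.4 ± 3.6 in CD8+ cells at 50 mg/kg. Lrpprc, with 4393 bases, went from 41.9 ± 2.5 to 18.7 ± 0.46 CPM and from 39.96 ± 1.8 to 17.0 ± 2.0.

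Of 10 nuclear regulators of respiratory genes tested 0 and 2 were higher and 5 and 7 lower in CD4+ cells, and 2 and 2 higher and 4 and 5 lower in CD8+ cells. Gabpa and Gabpb2, subunits of the ETS factor GABP, were at -0.90 and -1.30 in CD4+ and -1.11 and -1.53 in CD8+ cells at 50 mg/kg. Of 13 usual markers of mitochondrial mass 10 and 9 were higher and 1 and 2 lower in CD4+ cells, and 10 and 10 higher and 3 and 2 lower in CD8+ cells. By library size 3 and 3, then 5 and 4, of them were higher and lower in CD4+ and 4 and 3, then 6 and 5, in CD8+ cells, with medians from 0.00 to 0.08. Tomm20 and Tomm22 of the outer membrane import pore rose by 0.75 and 0.84 in CD4+ and by 0.90 and 0.87 in CD8+ cells at 50 mg/kg. In CD4+ cells at 50 mg/kg the list medians ran from -0.33 for the regulators to 0.70 for complex IV assembly, beside 0.96 for the nuclear members. By library size the counts higher and lower at 50 mg/kg in CD4+ cells were 2 and 2 for complex III assembly, 11 and 6 for complex IV assembly, 1 and 2 for complex V assembly and inhibition, 2 and 1 for complex II, 3 and 11 for RNA processing and 0 and 9 for the regulators. In CD8+ cells on that scale they were 2 and 2 for complex III assembly, 12 and 6 for complex IV assembly, 1 and 3 for complex V assembly and inhibition, 2 and 1 for complex II, 2 and 13 for RNA processing and 0 and 7 for the regulators. Of all genes, 15.1% and 59% were called higher and lower by library size at 50 mg/kg in CD4+ and 15.6% and 62.7% in CD8+ cells.

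The nuclear members have short transcripts, and the change with CSA went with transcript length over all genes. Across the nuclear members tested, Spearman's rho between log2 change and median transcript length was -0.79 and -0.76 in CD4+ cells (n = 35 genes) and -0.80 and -0.69 in CD8+ cells (n = 37). Across all genes with a length it was -0.67 and -0.60 in CD4+ (n = 10078) and -0.68 and -0.61 in CD8+ cells (n = 10257). Across the 13 mitochondrial genes it was -0.21 and 0.09, then -0.19 and 0.12. These are correlations across genes of the same libraries, which are not independent replicates, and they carry no test.

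Genes of like length were therefore set beside the nuclear members, leaving out cytosolic ribosomal proteins. Under 600 bases the median log2 change at 50 mg/kg was 1.09 for 13 members and 0.87 for 155 other genes in CD4+ cells, and 1.41 for 15 and 1.10 for 161 in CD8+ cells. From 600 to 1000 bases it was 0.96 for 11 members and 0.70 for 650 other genes in CD4+ cells, and 1.14 and 0.84 in CD8+ cells. From 1000 to 2000 bases it was 0.68 for 9 members and 0.38 for 2506 other genes in CD4+ cells, and 0.84 and 0.42 in CD8+ cells. From 2000 bases on, 2 members had medians of 0.52 in CD4+ and 0.69 in CD8+ cells, and other genes of -0.30 and -0.31. The members' medians were above those of the other genes in each of these classes, and the part of length in their change was not tested.

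**Figure D5:**
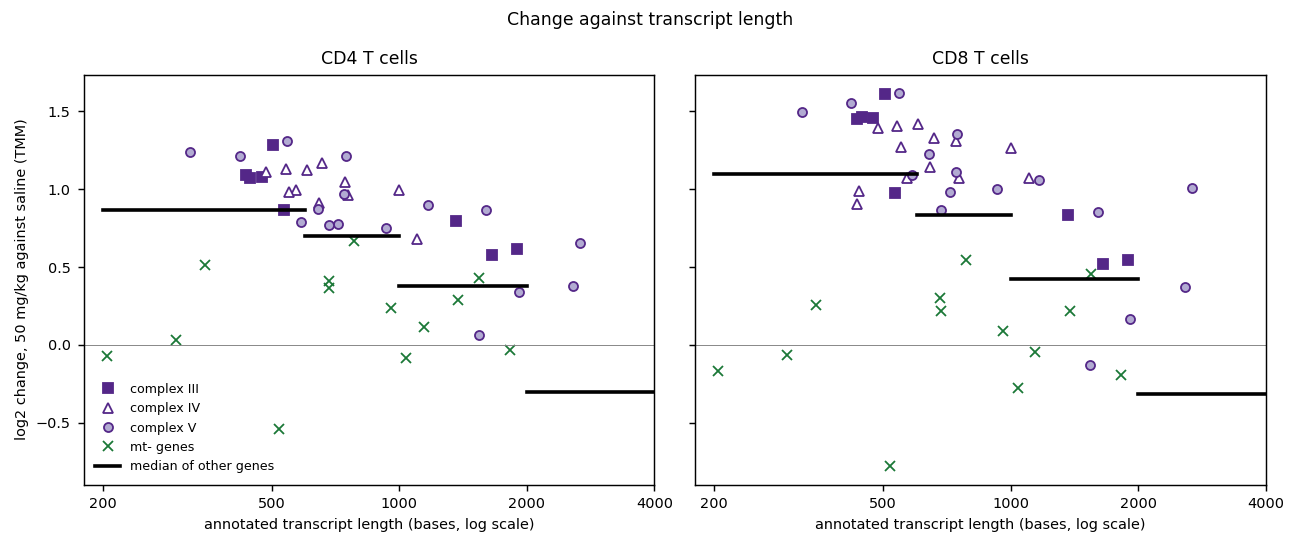
Log2 change at CSA 50 mg/kg against saline (TMM scaling) by median transcript length (log axis) for the nuclear members (points by complex) and the mt- genes (crosses), in CD4+ and CD8+ cells, with horizontal bars at the median of other genes in each length class. Short members lie highest (rho -0.76 and -0.69 over the nuclear members), and the bars fall with length.

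Several members have processed pseudogenes or near-identical copies elsewhere in the genome, so UMIs could have been split between copies in counting, and the level of a single member is uncertain to that extent.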

How the data were processed

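Single-cell RNA-seq counts of donor CD4+ and CD8+ T cells from 3 droplet captures (saline, CSA 5 mg/kg, CSA 50 mg/kg), each with 3 hashtagged pools of 2 mice, were analysed. The authors deposited UMI counts per gene and cell, none of which their table marks as dead or as a doublet. Cell Ranger, Seurat 3.0.0 and mm10 are named in the submitters' processing notes, and the annotation was not given in the sources used here. The deposited counts held 79.7 to 86.0% (CD4+) and 87.1 to 91.7% (CD8+) of the UMI number that the authors list for the same cells. The authors' deposited fraction of mitochondrial UMIs per cell, cluster numbers, pool names and TEa marks were used. The deposited CD8+ clusters, numbered from 1 to 9, were matched to the study's C0 to C8 by their markers.

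TEa cells were left out, and counts were summed per pool, lineage and, for cluster tests, cluster (pools with at least 10 cells). All 9 pools of a lineage were fitted with edgeR 4.0.16 (filterByExpr, TMM, quasi-likelihood test, Benjamini-Hochberg over all genes, threshold 0.05) in R 4.3.3. The difference between lineages was the interaction term, with the pool as a block. The SE of a log2 change was its absolute value divided by the square root of the F statistic of the quasi-likelihood test. DESeq2 1.42.0 was an alternative. Sums, ratios and figures used Python 3.11.15, numpy 2.4.6, pandas 2.3.3, scipy 1.17.1 and matplotlib 3.10.9. Transcript lengths were the median over a gene's transcripts in GENCODE vM21, and promoters came from RefSeq on GRCm38.p6. The scripts were tested on simulated data, in which a small set of genes was raised or lowered at random and the others did not change. The simulation did not test the choice between TMM and library size scaling where many genes change.

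The members and gene lists were chosen with earlier results of these data known. Members named with values per pool were the 2 with the largest rise and fall at 50 mg/kg per class and lineage among called members of at least 20 CPM, Atp5e, Cox6c and Cox7c, and all mt- genes; of each list, the 2 largest called changes per lineage were named. Other members and list genes named were chosen after their values were seen. Alternatives were DESeq2, no filter, library size scaling, scaling from other genes, only the groups compared, the pool number as a block, cells outside cycling clusters, cells of 4000 to 8000 UMIs and leaving out each pool. Added after the data were seen were cells with at most 5% mitochondrial UMIs, nuclear members of at least 1000 bases and the comparison of 50 with 5 mg/kg. UMIs are counted once per molecule, so their totals set the counting error of each sum.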

Additional observations from a re-analysis of the deposited data

Results flagged for a closer look

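The change with CSA differed between CD8+ and CD4+ cells by the test of the difference itself (edgeR, interaction of lineage and dose, adjusted over all genes) for 18 nuclear members and 12 mitochondrial genes at 5 mg/kg. At 50 mg/kg it differed for 22 nuclear members, of which 21 had the higher signed change in CD8+ cells, and for 8 mitochondrial genes, all with the lower change in CD8+ cells. Of all genes tested, 2.12% were called higher and 1.55% lower at 5 mg/kg, and 9.31% and 10.4% at 50 mg/kg. Without CD4+ cells above 5% mitochondrial UMIs the nuclear and mitochondrial counts were 10 and 0 at 5 mg/kg, beside 0.809% and 0.318%. Outside the cycling clusters they were 3 and 1 at 5 mg/kg, beside 0.475% and 0.272%. There they were 9 and 2 at 50 mg/kg, beside 2.95% and 3.16%.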

How the results depend on the processing

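For settings that changed values, the count of nuclear or mitochondrial (mt) members called higher or lower is given as reported and under the setting, and the causes were not tested. The turns in direction of single genes listed here are of mitochondrial genes, and not all nuclear members were checked for them. By library size the nuclear members Atp5a1, Atp5b, Uqcrc1 and Uqcrc2 also turned in some comparisons, as given above. With library size scaling, counts moved for nuclear lower from 0 to 2, mt higher from 12 to 3 and mt lower from 0 to 2 in CD4+ cells at 5 mg/kg, nuclear lower from 0 to 1, mt higher from 8 to 1 and mt lower from 1 to 8 in CD4+ cells at 50 mg/kg, nuclear lower from 0 to 3, mt higher from 9 to 1 and mt lower from 1 to 12 in CD8+ cells at 5 mg/kg, nuclear lower from 0 to 3, mt higher from 7 to 0 and mt lower from 4 to 11 in CD8+ cells at 50 mg/kg and nuclear lower from 1 to 2 in the CD8+ minus CD4+ difference at 50 mg/kg. The log2 change of these genes turned in direction with library size scaling: mt-Atp8 (-0.0255), mt-Cytb (-0.0708), mt-Nd2 (-0.11) and mt-Nd5 (-0.16) in CD4+ cells at 5 mg/kg, mt-Atp6 (-0.0253), mt-Co1 (-0.00634), mt-Co2 (-0.0730), mt-Cytb (-0.32), mt-Nd1 (-0.20), mt-Nd4 (-0.15) and mt-Nd4l (-0.41) in CD4+ cells at 50 mg/kg, mt-Atp6 (-0.25), mt-Atp8 (-0.31), mt-Co1 (-0.14), mt-Co2 (-0.25), mt-Co3 (-0.10), mt-Cytb (-0.40), mt-Nd1 (-0.33), mt-Nd4 (-0.19) and mt-Nd4l (-0.14) in CD8+ cells at 5 mg/kg and mt-Atp6 (-0.23), mt-Co1 (-0.0735), mt-Co2 (-0.31), mt-Nd1 (-0.44), mt-Nd3 (-0.27) and mt-Nd4 (-0.31) in CD8+ cells at 50 mg/kg. Within clusters library size scaling moved nuclear higher from 13 to 7 in CD4+ C1 at 5 mg/kg, nuclear higher from 11 to 3 and nuclear lower from 1 to 2 in CD4+ C1 at 50 mg/kg, mt lower from 0 to 1 in CD4+ C2 at 5 mg/kg, nuclear higher from 14 to 4 and nuclear lower from 1 to 3 in CD4+ C2 at 50 mg/kg, mt higher from 2 to 1 in CD4+ C9 at 5 mg/kg, mt higher from 2 to 1 in CD4+ C9 at 50 mg/kg, mt higher from 5 to 3 in CD8+ C1 at 5 mg/kg, nuclear higher from 25 to 7 and mt lower from 0 to 2 in CD8+ C1 at 50 mg/kg, nuclear lower from 0 to 1, mt higher from 1 to 0 and mt lower from 1 to 11 in CD8+ C5 at 5 mg/kg and nuclear lower from 0 to 1, mt higher from 1 to 0 and mt lower from 3 to 11 in CD8+ C5 at 50 mg/kg. Without the filter on low counts, the count moved for mt lower from 1 to 2 in CD4+ cells at 50 mg/kg. Within clusters it moved mt higher from 1 to 4 in CD4+ C1 at 5 mg/kg, nuclear lower from 1 to 0 in CD4+ C1 at 50 mg/kg, mt higher from 3 to 5 in CD4+ C2 at 5 mg/kg, mt higher from 2 to 4 in CD4+ C9 at 5 mg/kg, nuclear higher from 4 to 9 and mt higher from 2 to 6 in CD4+ C9 at 50 mg/kg and mt higher from 1 to 2 and mt lower from 1 to 0 in CD8+ C5 at 5 mg/kg. With only cells outside the cycling clusters, counts moved for mt lower from 1 to 0 in CD8+ cells at 5 mg/kg, mt lower from 4 to 2 in CD8+ cells at 50 mg/kg, nuclear higher from 18 to 3 and mt lower from 12 to 1 in the CD8+ minus CD4+ difference at 5 mg/kg and nuclear higher from 21 to 9, nuclear lower from 1 to 0 and mt lower from 8 to 2 in the CD8+ minus CD4+ difference at 50 mg/kg. There, the direction turned for mt-Nd6 (0.00272) in CD4+ cells at 5 mg/kg, mt-Atp8 (0.0334) and mt-Nd5 (0.0697) in CD4+ cells at 50 mg/kg, mt-Nd2 (0.20) and mt-Nd5 (0.0620) in CD8+ cells at 5 mg/kg and mt-Cytb (0.0931) and mt-Nd4l (0.0475) in CD8+ cells at 50 mg/kg. With only cells of 4000 to 8000 UMIs, counts moved for mt lower from 4 to 2 in CD8+ cells at 50 mg/kg. There, the direction turned for mt-Atp8 (0.0850) and mt-Nd5 (0.14) in CD4+ cells at 50 mg/kg, mt-Nd5 (0.0871) in CD8+ cells at 5 mg/kg and mt-Atp8 (0.0107) and mt-Nd5 (0.00823) in CD8+ cells at 50 mg/kg. With only cells with at most 5% mitochondrial UMIs, a limit added after seeing the data, counts moved for mt lower from 1 to 2 in CD4+ cells at 50 mg/kg and nuclear higher from 18 to 10 and mt lower from 12 to 0 in the CD8+ minus CD4+ difference at 5 mg/kg. The log2 change of the mitochondrial to nuclear ratio (-0.43 and -0.56 in CD4+, -0.83 and -0.85 in CD8+ cells at 5 and 50 mg/kg) kept its sign under each setting run and moved to -0.35, -0.37, -0.58 and -0.56 outside the cycling clusters, -0.55, -0.32, -0.74 and -0.69 in cells of 4000 to 8000 UMIs, -0.0846, -0.28, -0.36 and -0.41 with nuclear members of at least 1000 bases, and -0.65 in CD4+ cells at 5 mg/kg with at most 5% mitochondrial UMIs. Leaving out each pool in turn, mt-Nd6 in CD4+ cells at 5 mg/kg ran from -0.0700 to 0.0613 and turned without saline pool 2, saline pool 3 and 5 mg/kg pool 3, mt-Nd2 in CD8+ cells at 5 mg/kg ran from -0.0711 to 0.0151 and turned without saline pool 2 and 5 mg/kg pool 2, mt-Cytb in CD8+ cells at 5 mg/kg ran from -0.00641 to 0.0636 and turned without saline pool 3, the count of nuclear members higher for the lineage difference at 5 mg/kg ran from 11 to 23, with 11 without saline pool 2 and the count of mt members lower for the lineage difference at 50 mg/kg ran from 4 to 10, with 4 without saline pool 1. DESeq2, a fit on only the pools compared and scaling from genes other than the members left all 16 counts of the dose comparisons within 1.5 times. The pool numbers did not pair samples, since each dose had its own hashtags. With the pool number as a replicate block all 16 counts also stayed within 1.5 times, and mt-Nd1 in CD8+ cells at 50 mg/kg (log2 change 0.09) lost its call, so that 6 mitochondrial genes were higher there. Saline pools of naive CD4+ and CD8+ cells held 25 to 50 cells, so a missing call there does not show that a gene did not change. With 3 pools of a dose from 1 capture, the spread between captures was not measured.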

Other observations

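Values of single members within clusters, with TMM scaling and from the same edgeR fits, were as follows. In CD8+ Tcf7hi cells (C5) Atp5k, Atp5e, Cox7c and Uqcr11 rose at 5 mg/kg by 1.84, 1.56, 1.51 and 1.23 on the log2 scale, and at 50 mg/kg by 1.39, 1.37, 1.10 and 1.11. In Cd226lo effector cells (C1) Atp5k rose by 0.89 ± 0.14 (SE) in CD8+ and 0.52 ± 0.14 in CD4+ cells at 5 mg/kg, and at 50 mg/kg it was at 0.41 ± 0.14 and 0.03 ± 0.13, called in CD8+ cells only. Atp5b was not called in any of the 6 clusters, with values of -0.11 to 0.12.

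Of the mitochondrial genes, mt-Co3 rose at 50 mg/kg by 0.75 ± 0.05 in CD4+ C1, 0.62 ± 0.05 in CD4+ C2, 0.60 ± 0.05 in CD8+ C1 and 0.71 ± 0.07 in the naive CD8+ C7, where no nuclear member was called. By library size 5 mitochondrial genes were higher in CD8+ C7 at that dose. At 5 mg/kg mt-Nd3 was at 1.22 ± 0.19 in CD8+ C1 and at 1.31 ± 0.46 in the naive CD4+ C9, whose saline pools held 25 to 50 cells. mt-Nd6 was at -1.06 ± 0.30 in CD4+ C2 at 50 mg/kg, where it was called, and at -0.07 ± 0.29 in CD4+ C1, where it was not. Whether changes differed between clusters was not tested.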
